A study of Homo sapiens with 14 samples.

Results

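The microRNA genes annotated inside the ribosomal DNA repeats of chromosome 21 were followed through every library of a nascent transcription study of A549 cells, a human lung adenocarcinoma line. The genes are all copies of MIR3687 (2), MIR3648 (2) and MIR6724 (4), 8 of the 58780 genes in the count table. They were chosen by their PRO-seq counts in these libraries, where they were among the genes with the largest differences from untreated, so their levels and differences are given as descriptions, with no p-value for any of them. Counts of copies past a test's threshold are printed as descriptions too. The share of all genes past it stands beside counts from the main test and the authors' tables only. Counts from other tests or settings, with a library left out or before adjustment, have no such share beside them. Nothing is read from any of these counts. The table named 6 of them, and both MIR3687 rows, whose name field was blank, were identified by gene ID in GENCODE 29. All 8 passed the filter on low counts, which 21910 genes passed.

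Precision run-on sequencing (PRO-seq) labels RNA while an engaged polymerase extends it. A count is thus meant to reflect a polymerase caught in the act and not stable RNA. There were 7 groups of 2 libraries, each made from a like number of cells by the labels. All 7 groups carried 0.01% DMSO, and the untreated group is labelled 15 min. GSK591, an inhibitor of the arginine methyltransferase PRMT5, and MS023, an inhibitor of the type I arginine methyltransferases, were each given at 1 µM for 15 min, for 15 min together with 100 nM dexamethasone (Dex, a synthetic glucocorticoid), and for 3 h. The design sets nascent transcription under each inhibitor, with and without Dex, against untreated cells. All 6 such comparisons share the same untreated libraries, and Dex without an inhibitor and untreated cells at 3 h are not analysed here. The labels do not say that the 2 libraries of a group came from separate cultures, so any p-value measures only the spread between these samples, which may be technical.

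In each ribosomal DNA repeat, RNA polymerase I makes a long precursor from which the 18S, 5.8S and 28S ribosomal RNAs are cut, and the stretch ahead of 18S, the external transcribed spacer, is removed and degraded. A microRNA is a short RNA cut from a hairpin by DROSHA and DICER1, and it guides an Argonaute protein to target RNAs that pair with its seed, bases 2 to 8. PRO-seq reads over these genes are meant to count polymerases that cross the annotated hairpin, on whatever transcript, and not mature microRNA.

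RefSeq (GRCh38.p14) gave sequences for 3 of the 8 genes. They are shown because they let a reader see how rich in G and C these short windows are, and what seeds they carry. In the mature sequences the capitals mark the seed, and in the hairpin they mark the mature microRNA.
hsa-miR-6724-5p: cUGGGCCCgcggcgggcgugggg
hsa-miR-3648: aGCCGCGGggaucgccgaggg
MIR6724-2 hairpin: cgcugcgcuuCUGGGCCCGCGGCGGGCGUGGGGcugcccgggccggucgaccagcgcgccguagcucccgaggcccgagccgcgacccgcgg
The mature hsa-miR-6724-5p spans bases 11 to 33 of the 92-base hairpin, and MIR6724-4 had the same hairpin sequence as MIR6724-2. G and C made up 91.3% of hsa-miR-6724-5p and 81.0% of hsa-miR-3648, against a median of 52.2% over 2370 mature human microRNAs. The seed of hsa-miR-3648 was shared by 0 others of the 2370, and that of hsa-miR-6724-5p by 1, hsa-miR-6773-5p.

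All 8 genes lie on the plus strand of chromosome 21 in hg38 and have 1 exon. MIR6724-1 (ENSG00000275950.1, chr21:8205315-8205406) ends 582 bases before the annotated start of the 45S precursor RNA45SN2. MIR3648-1 (ENSG00000275708.1, chr21:8208473-8208652) and MIR3687-1 (ENSG00000277437.1, chr21:8208844-8208904) begin 2485 and 2856 bases after that start, in the external transcribed spacer ahead of RNA18SN2, which begins at 3643. These 3 genes are intronic in the lncRNA FP671120.1. MIR6724-3 (ENSG00000277379.1, chr21:8388362-8388453) ends 582 bases before RNA45SN3 and is intronic in the lncRNA FP236383.1, and MIR6724-4 (ENSG00000275692.1, chr21:8432530-8432621) ends 601 bases before RNA45SN1. MIR6724-2 (ENSG00000274060.1, chr21:8249505-8249596) lies ahead of the pseudogenes RNA18SP5 and RNA5-8SP10. MIR3648-2 (ENSG00000264462.1, chr21:8986999-8987178) and MIR3687-2 (ENSG00000264063.1, chr21:8987370-8987430) lie away from any annotated 45S gene.

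Copies of a family had identical annotated sequences, of 180 bases for MIR3648, 61 for MIR3687 and 92 for MIR6724, with G and C at 83.9%, 78.7% and 83.7%. How the authors' counting shared out reads that match several copies, or whether it used strand, is not given in the sources used here, so the copy a read came from is uncertain. Between MIR3648-1 and MIR3648-2 the count ratio ran from 0.865 to 1.06 over the 14 libraries, with a median chi-square per degree of freedom of 1.00, which is the size of sampling noise. The 4 MIR6724 copies had a median of 1.21. MIR3687-1 was counted more than MIR3687-2 in all 14 libraries, by 1.10 to 1.30 times, with a chi-square from 11.0 to 228.2. Since copies move together, families are described below by the summed counts of their copies, and copies are not separate observations.

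Library totals ran from 5768312 to 9606938 counts, of which 39.8% at the lowest and 49.1% at the median were mitochondrial. The 8 microRNA genes took between 0.020% and 0.929% of a library. Of 9 A549 epithelial markers, all were counted, with median levels from 2.20 (CDH1) to 475.7 (KRT7) CPM (counts scaled to a library total of 1000000), and CDKN2A, deleted in this line, had at most 1 count. The 11 markers of blood, fibroblast, endothelial, liver and alveolar type II cells summed to 8.87 to 11.4 CPM in the untreated libraries, and CD3E was at 0 in every library. That sum was 11.7 to 12.1 CPM with GSK591 and Dex, 11.6 CPM with MS023 and Dex and 11.9 to 12.5 CPM after 3 h of GSK591, and in the other 3 groups it overlapped the untreated range. Its part in the results was not tested. In these bulk samples fewer cells of a type and less RNA per cell cannot be told apart.

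In untreated cells the families differed widely in level. Per kilobase of annotated gene, MIR3687-1 stood at 1253 ± 187 CPM per kb (SD, n = 2) and MIR3687-2 at 1019, at ranks 1 and 2 of the 131 microRNA genes that passed the filter. MIR3648-2 and MIR3648-1 were at ranks 6 and 7 on this scale, at 229.1 and 205.7 CPM per kb. The 4 copies of MIR6724 stood at 20.1 to 24.8 CPM per kb, near the median of 19.5 over the 131 genes. After 3 h of GSK591 the MIR6724 copies were at ranks 8 to 11, at 265.3 to 289.9 CPM per kb, while the median over the 131 genes was 21.3. Levels from here on are CPM scaled by the trimmed mean of M values (TMM) and are not divided by length.

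MIR6724, of which 3 copies lie ahead of an annotated 45S start, had 7.85 and 8.76 CPM in the untreated libraries (summed over 4 copies). It had 40.3 and 17.4 CPM after 15 min of GSK591, 4.22 and 9.46 CPM after 15 min of MS023, and 48.5 and 60.3 CPM with GSK591 and Dex. It had 75.8 and 104.0 CPM with MS023 and Dex, 90.7 and 112.9 CPM after 3 h of GSK591, and 98.7 and 115.3 CPM after 3 h of MS023. For comparison, of all genes tested, 21.1% had both libraries of GSK591 at 15 min above both untreated ones, 20.4% those of MS023 at 15 min, 23.5% and 25.2% those with Dex, and 27.1% and 24.7% those at 3 h, GSK591 first. For MIR6724, every treated library except those of MS023 at 15 min lay above both untreated ones, and the MS023 15 min libraries fell on either side of them. These are the thinnest data of the 3 families, with 7 to 261 counts per copy and library.

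MIR3648, of which MIR3648-1 lies in the external transcribed spacer, had 74.2 and 82.3 CPM in untreated cells (summed over 2 copies). It had 589.7 and 168.9 CPM after 15 min of GSK591 and 143.3 and 255.9 CPM after 15 min of MS023. It had 1702 and 605.7 CPM with GSK591 and Dex, and 1164 and 1278 CPM with MS023 and Dex. At 3 h it had 4015 and 2875 CPM with GSK591 and 1577 and 1348 CPM with MS023. No treated library overlapped the untreated ones. Replicates 1 and 2 differed by 3.49 times in GSK591 at 15 min and 2.81 times in GSK591 with Dex, against 1.10 times in MS023 with Dex.

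MIR3687, of which MIR3687-1 lies further along the same spacer, was the most counted family in untreated cells, at 124.6 and 152.6 CPM. It had 2196 and 840.9 CPM after 15 min of GSK591 and 237.5 and 647.7 CPM after 15 min of MS023. It had 5268 and 1598 CPM with GSK591 and Dex, and 2547 and 1799 CPM with MS023 and Dex. At 3 h it had 4936 and 4459 CPM with GSK591 and 2536 and 1670 CPM with MS023. All treated libraries were above both untreated ones, and the highest of all 14 was replicate 1 of GSK591 with Dex.

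**Figure D1:**
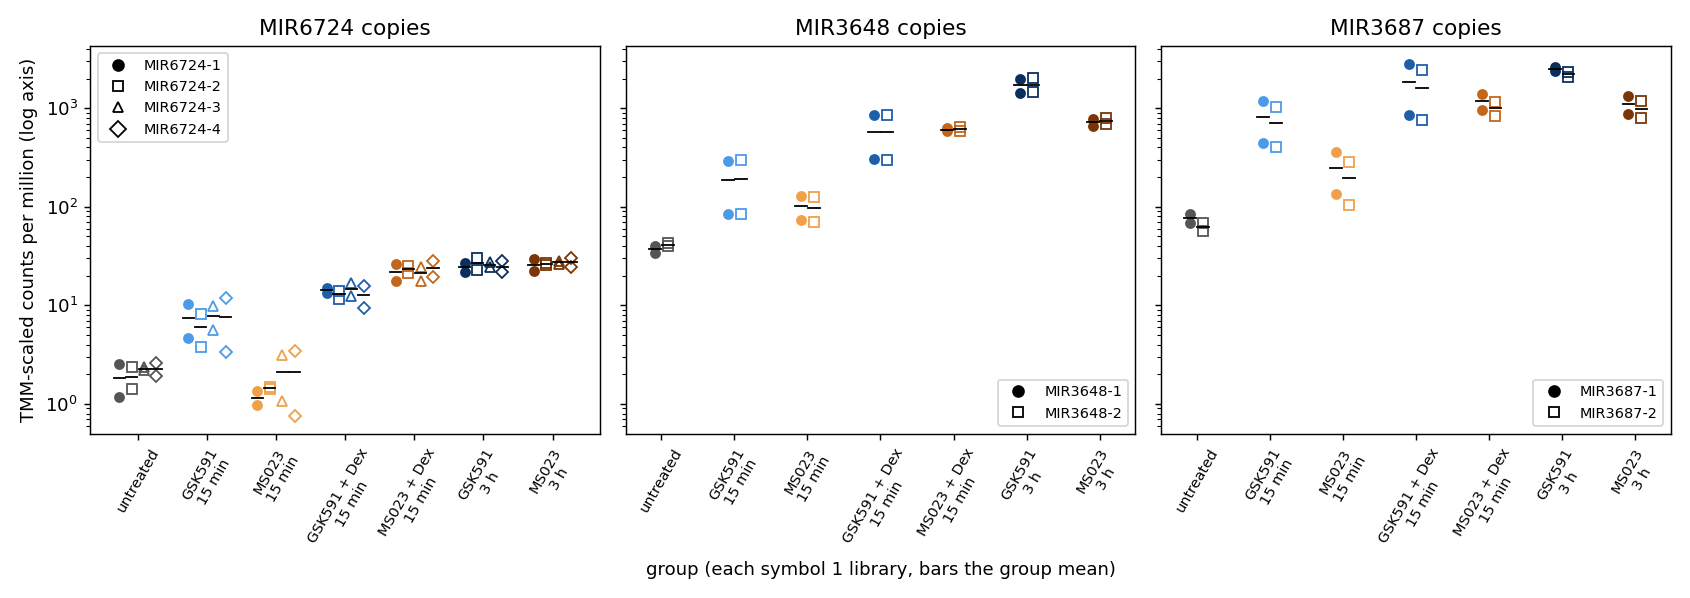
TMM-scaled CPM (log axis) of each copy in each library, by group, with bars at the group means. Copies of a family sit close together in every group except for the thinly counted MIR6724 copies. Of single copies, MIR6724-4 has its 2 libraries furthest apart, 4.56 times in MS023 at 15 min. With copies summed, the widest gaps are in GSK591 at 15 min for MIR3648 (3.49 times) and in GSK591 with Dex for MIR3687 (3.30 times).

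Ordered by mean level, MIR3648 ran from GSK591 at 3 h (3445 ± 806 CPM, SD, n = 2) through MS023 at 3 h (1462 ± 161), MS023 with Dex (1221 ± 80.5), GSK591 with Dex (1154 ± 775), GSK591 at 15 min (379.3 ± 298) and MS023 at 15 min (199.6 ± 79.7) to untreated (78.3 ± 5.75). In that order the libraries of both Dex groups overlapped, as did those of both inhibitors at 15 min, and the other adjacent groups did not. For MIR3687 the order was GSK591 at 3 h (4697 ± 337 CPM), GSK591 with Dex (3433 ± 2595), MS023 with Dex (2173 ± 529), MS023 at 3 h (2103 ± 612), GSK591 at 15 min (1518 ± 958), MS023 at 15 min (442.6 ± 290) and untreated (138.6 ± 19.8). Of these only MS023 at 15 min and untreated were free of overlap with the group next above them. For MIR6724 the order was MS023 at 3 h (107.0 ± 11.7 CPM), GSK591 at 3 h (101.8 ± 15.7), MS023 with Dex (89.9 ± 19.9), GSK591 with Dex (54.4 ± 8.32), GSK591 at 15 min (28.8 ± 16.2), untreated (8.30 ± 0.642) and MS023 at 15 min (6.84 ± 3.71). Both groups at 3 h overlapped, as did GSK591 at 3 h and MS023 with Dex, and untreated and MS023 at 15 min, and the other adjacent groups did not.

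Against untreated, the log2 fold changes (with standard error, from edgeR's fit of all 14 libraries) ran in the order MIR3687, MIR3648, MIR6724 in the 4 groups at 15 min, and in both groups at 3 h MIR3648 came first. After 15 min of GSK591 they were 3.45 ± 0.36 for MIR3687, 2.28 ± 0.32 for MIR3648 and 1.80 ± 0.25 for MIR6724, that is 11.0, 4.85 and 3.47 times the untreated level. The edgeR test (adjusted p under 0.05, Benjamini-Hochberg over all genes tested) called 8 of the 8 genes higher, where 0.297% of all genes tested were called higher. Without replicate 1 of the GSK591 15 min group it called 2, with a log2 fold change of 1.11 for MIR3648, and without either untreated library it called 5. The median over the 8 genes was 2.11, and over all genes tested 0.02.

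After 15 min of MS023 the changes were 1.67 ± 0.34 for MIR3687, 1.34 ± 0.32 for MIR3648 and -0.36 ± 0.33 for MIR6724. The test called 2 of the 8 genes higher, where the share over all genes was 0.0822%, and both were MIR3687 copies. It called 0 without replicate 2 of MS023 at 15 min and 0 without either untreated library, and DESeq2's Wald test called 0. The median over the 8 was 0.51, and over all genes 0.00. In the authors' deposited tables, no copy had an adjusted p under 0.05 at 15 min of either inhibitor without Dex, where 0% of genes with an adjusted p passed for GSK591 and 0.00681% for MS023, although the log2 fold changes there ran from 1.51 to 3.37 for GSK591 and from -1.15 to 1.55 for MS023. The standard errors there ran from 0.513 to 0.948 for GSK591 and from 0.577 to 0.973 for MS023. For each copy they were larger than those of edgeR's fit.

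With Dex, the changes against untreated were 4.63 ± 0.38 (MIR3687), 3.88 ± 0.34 (MIR3648) and 2.71 ± 0.24 (MIR6724) beside GSK591. Beside MS023 they were 3.97 ± 0.37, 3.96 ± 0.34 and 3.44 ± 0.22 in the same order. All 8 genes were called higher in both comparisons, where 3.21% of all genes were called higher for GSK591 and 4.99% for MS023. The authors' deposited tables had 7 of 8 copies under 0.05 for GSK591 with Dex, where 1.36% of genes passed, and 8 of 8 for MS023 with Dex, where 1.96% did. Standard errors there ran from 0.504 to 0.946 for GSK591 with Dex and from 0.498 to 0.942 for MS023 with Dex. For each copy they were again larger than those of edgeR's fit.

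At 3 h the largest change belonged to MIR3648 with both inhibitors. With GSK591 it was 5.46 ± 0.36 for MIR3648, 44.0 times the untreated level, 5.08 ± 0.39 for MIR3687 and 3.61 ± 0.22 for MIR6724. With MS023 it was 4.22 ± 0.34, 3.92 ± 0.37 and 3.68 ± 0.22. All 8 genes were called higher with each inhibitor, where 7.25% of all genes were called higher with GSK591 and 5.4% with MS023. The untreated group is labelled 15 min, so time in culture and inhibitor cannot be told apart in these 2 comparisons. The authors' deposited tables gave 8 of 8 copies an adjusted p under 0.05 at 3 h of each, where 6.07% of genes passed for GSK591 and 3.17% for MS023. Standard errors there ran from 0.497 to 0.942 with each inhibitor, larger for each copy than those of edgeR's fit.

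With added Dex the mean level of each family was higher beside either inhibitor, and the estimated differences were larger beside MS023. Between 15 min of MS023 alone and with Dex, MIR6724 differed by 3.79 ± 0.24 on the log2 scale, a 13.9-fold higher level, MIR3648 by 2.62 ± 0.32 and MIR3687 by 2.30 ± 0.34. The higher group lay wholly above the other in all 3 families, as it did for 24.2% of all genes tested. The test called 8 of 8 genes higher, where 5.9% of all genes were called higher. Beside GSK591 the differences were 0.91 ± 0.20 for MIR6724, 1.61 ± 0.31 for MIR3648 and 1.18 ± 0.33 for MIR3687, whose libraries overlapped. There 7 of 8 genes were called higher, where 1.43% of all genes were. Without replicate 2 of GSK591 at 15 min the test called 0, without replicate 1 of GSK591 with Dex 2, without replicate 2 of that group 4, and DESeq2's Wald test called 1. The MIR3687 difference came to 0.07 without replicate 1 of GSK591 with Dex.

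The difference between these 2 Dex differences (GSK591 minus MS023) was -2.88 ± 0.33 for MIR6724, -1.12 ± 0.46 for MIR3687 and -1.01 ± 0.43 for MIR3648. The 4 of 8 genes past the threshold, all lower, were the copies of MIR6724, which are identical in sequence and stand for 1 family, where 1.07% of all genes were called lower. The copies ran from -3.34 ± 0.45 (MIR6724-1) to -2.51 ± 0.38 (MIR6724-3). Leaving out a library moved the count to between 2 (without replicate 1 of MS023 at 15 min) and 8 (without replicate 1 of GSK591 with Dex, and 7 without replicate 2 of GSK591 at 15 min). The MIR6724 value itself stayed between -3.50 and -2.15, while that of MIR3648 ran from -1.95 to 0.16.

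Between 15 min and 3 h, MIR3648 was higher at 3 h by 3.18 ± 0.32 with GSK591 and 2.88 ± 0.32 with MS023. MIR3687 was higher by 1.63 ± 0.33 and 2.25 ± 0.34, and MIR6724 by 1.82 ± 0.19 and 4.04 ± 0.24. The libraries of 3 h lay wholly above those of 15 min in all 3 families with either inhibitor, as they did for 24.5% of all genes with GSK591 and 25.5% with MS023. All 8 genes were called higher in each comparison, where 3.65% of all genes were called higher for GSK591 and 7.65% for MS023. DESeq2's Wald test called 5 for GSK591.

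Directly compared, GSK591 and MS023 differed most at 15 min without Dex for MIR6724 and MIR3687, and at 3 h for MIR3648. At 15 min MIR6724 was higher with GSK591 by 2.15 ± 0.27, MIR3687 by 1.78 ± 0.34, and MIR3648, whose libraries overlapped, by 0.93 ± 0.31. The test called 6 of 8 genes higher with GSK591, where 1.01% of all genes were. DESeq2's Wald test called 3, for which no share of all genes is given. Leaving out a library of either group gave differences of 1.42 to 2.77 for MIR6724 and 0.93 to 2.68 for MIR3687. For MIR3648 they ran from -0.24 to 1.57. With Dex the differences were -0.73 ± 0.18 for MIR6724, 0.66 ± 0.33 for MIR3687 and -0.08 ± 0.30 for MIR3648. At 3 h they were -0.07 ± 0.17, 1.16 ± 0.33 and 1.24 ± 0.30. In both of these edgeR called 0 of 8 genes, where 0% of all genes were called higher with GSK591. The share called lower is not given here. At an unadjusted p under 0.05 in edgeR there were 5 and 4 genes, and DESeq2's Wald test called 0. A missed threshold does not show that the inhibitors acted alike.

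Ratios between families within a library do not depend on scaling. MIR3687 had 1.68 and 1.85 counts per MIR3648 count in untreated cells, 3.72 and 4.98 after 15 min of GSK591 and 3.10 and 2.64 with GSK591 and Dex. At 3 h the ratio was 1.23 and 1.55 with GSK591 and 1.61 and 1.24 with MS023. MS023 at 15 min (1.66 and 2.53) and with Dex (2.19 and 1.41) overlapped the untreated libraries. So the 4 libraries of GSK591 at 15 min, with or without Dex, had the highest ratios of the 14, and the 4 libraries at 3 h all lay below the untreated ones. MIR6724 had 10.6 counts per 100 MIR3648 counts in each untreated library. It had 2.94 and 3.70 after 15 min of MS023 and 2.26 and 3.93 after 3 h of GSK591, the 2 groups with the lowest means.

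**Figure D2:**
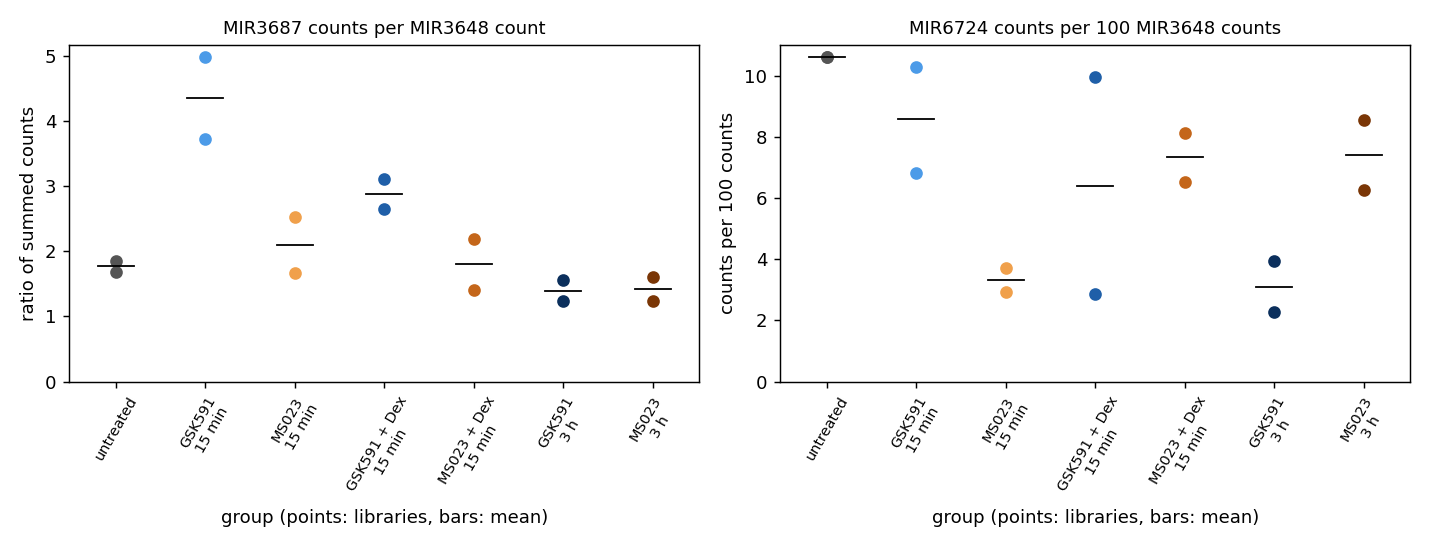
Left, MIR3687 counts per MIR3648 count, and right, MIR6724 counts per 100 MIR3648 counts, by group, with points for libraries and bars for means. The left ratio is highest after 15 min of GSK591 (3.72 and 4.98). The right has its lowest means after 3 h of GSK591 (2.26 and 3.93) and 15 min of MS023 (2.94 and 3.70), while GSK591 with Dex had 2.85 and 9.95.

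Across the 14 libraries the families followed one another, with a Pearson correlation of log2 CPM of 0.95 between MIR3648 and MIR3687, 0.91 between MIR3648 and MIR6724 and 0.87 between MIR3687 and MIR6724. The libraries fall into treatment groups and share their depth and scaling, so these are descriptions.

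The annotation holds 16 other genes within 50000 bases of a member, and all 16 passed the filter. Each full repeat carries RF01518, an Rfam family of RNA at the ribosomal DNA promoter, from 137 to 48 bases before the 45S start. Each also carries a lncRNA on the minus strand inside 18S, and 5.8S. The 6 with the highest mean level were those antisense lncRNAs, FP236383.3 (16435 CPM), FP236383.2 (16366), FP671120.3 (16079) and FP671120.4 (13644), and the 5.8S genes RNA5-8SN1 (2300) and RNA5-8SN3 (2293). Since strand use is not stated, reads of the antisense lncRNAs and of 18S cannot be told apart. Whether some reads over 18S and 5.8S came from mature ribosomal RNA was not tested. The 4 further 5.8S genes on unplaced scaffolds had 0 counts. These copies are near-identical as well, so their counts are not separate observations.

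The 18S-antisense and 5.8S genes had smaller fold changes than MIR3648 and MIR3687 in 5 of the 6 comparisons with untreated, the exception being 15 min of MS023, where the antisense lncRNAs lay between those families. These differences between genes were not tested. FP236383.3 rose by 0.91 ± 0.22 on the log2 scale after 15 min of GSK591 (edgeR adjusted p = 0.047), from 9041 to 17021 CPM. It rose by 1.43 ± 0.22 after 15 min of MS023 (adjusted p = 0.00021), by 1.18 ± 0.22 with GSK591 and Dex (adjusted p = 0.00036), by 0.67 ± 0.22 with MS023 and Dex (adjusted p = 0.047) and by 1.00 ± 0.22 after 3 h of GSK591 (adjusted p = 0.0013). After 3 h of MS023 it differed by 0.38 ± 0.21 (adjusted p = 0.34). RNA5-8SN1 rose by 1.15 ± 0.18 after 15 min of MS023 (adjusted p = 0.00021), by 0.70 with GSK591 and Dex (adjusted p = 0.0099), by 0.73 with MS023 and Dex (adjusted p = 0.0049) and by 0.67 after 3 h of GSK591 (adjusted p = 0.0076). For it the difference after 15 min of GSK591 was 0.70 ± 0.17 (adjusted p = 0.067), and after 3 h of MS023 0.29 ± 0.17 (adjusted p = 0.37). Without untreated replicate 2, all 4 calls of RNA5-8SN1 were lost, at log2 fold changes of 0.56 to 1.03, and so were those of FP236383.3 after 15 min of GSK591 (0.81) and of MS023 (1.32) and with MS023 and Dex (0.57). Without MS023 with Dex replicate 1 the values with MS023 and Dex were 0.32 for FP236383.3 and 0.46 for RNA5-8SN1, not called, and without GSK591 with Dex replicate 1 RNA5-8SN1 was at 0.42, not called. Leaving out either library of GSK591 at 15 min or untreated replicate 1 also ended the 15 min GSK591 call of FP236383.3 (0.85 to 1.02), untreated replicate 1 that with MS023 and Dex (0.77), and GSK591 3 h replicate 2 that of RNA5-8SN1 at 3 h (0.56). In this pair the highest level was at 15 min of MS023, the group with the lowest mean of MIR6724 and the lowest treated means of MIR3648 and MIR3687.

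RF01518 and FP671120.1 were chosen after their values were seen, because of where they lie. RF01518 of the RNA45SN1 repeat (ENSG00000278775.1) had 247.9 and 296.8 CPM in untreated cells and rose by 0.58 ± 0.14 with MS023 and Dex (adjusted p = 0.005). In the other 5 groups it differed by -0.03 to 0.31, with adjusted p from 0.16 to 0.98. FP671120.1, the spliced lncRNA on the plus strand that spans MIR6724-1, MIR3648-1 and MIR3687-1, did not follow them in direction in 4 of the 6 groups. At 15 min of MS023 it did not follow MIR6724-1 either, which was at -0.697 ± 0.53 with libraries that overlapped the untreated ones. FP671120.1 had 2582 and 2584 CPM in untreated cells. It was not called at 15 min of GSK591 (3367 and 2383 CPM, 0.155 ± 0.16 on the log2 scale, adjusted p = 0.96) or of MS023 (3422 and 3889 CPM, 0.50 ± 0.16, adjusted p = 0.27), where both MS023 libraries lay above the untreated ones. It fell by 0.70 with GSK591 and Dex (SE 0.16, adjusted p = 0.0037), by 0.50 with MS023 and Dex (adjusted p = 0.039), by 0.53 after 3 h of GSK591 (adjusted p = 0.022) and by 1.16 after 3 h of MS023 (adjusted p = 1.3e-06). Leaving out any 1 library of the groups compared ended its calls with MS023 and Dex (-0.65 to -0.37) and after 3 h of GSK591 (-0.56 to -0.50), and leaving out GSK591 with Dex replicate 2 that with GSK591 and Dex (-0.48). The RF01518 call was lost without untreated replicate 1 (0.45) or without MS023 with Dex replicate 2 (0.57).

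**Figure D3:**
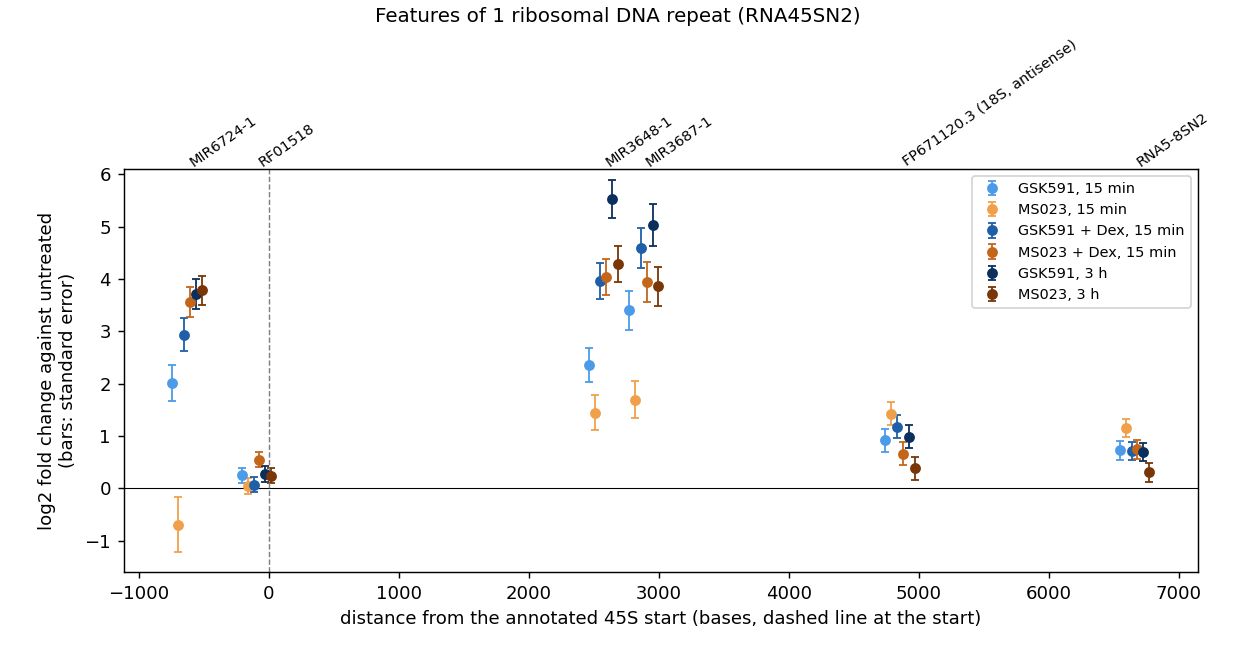
Log2 fold change against untreated (bars, standard error) of 6 features of the repeat that holds RNA45SN2, by their distance in bases from the annotated 45S start. MIR6724-1, MIR3648-1 and MIR3687-1 reach 3.78, 5.53 and 5.03, while RF01518, which lies between them, reaches 0.54 and the features over 18S and 5.8S reach 1.42 and 1.15.

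Counted over all 16 neighbours, the test called 5 higher after 15 min of GSK591, where 0.297% of all genes were called higher, and 9 higher after 15 min of MS023, where 0.0822% were. It called 8 higher and 2 lower with GSK591 and Dex, 11 higher and 2 lower with MS023 and Dex, and 8 higher and 2 lower after 3 h of GSK591. Of all genes tested, 3.21%, 4.99% and 7.25% were called higher in these groups, and 2.64%, 2.67% and 3.79% lower. After 3 h of MS023 the test called 0 higher, where 5.4% of all genes were, and 2 lower, where 2.23% were. The 2 were FP671120.1 and FP236383.1, the spliced lncRNAs. The neighbours' medians were 0.71, 0.90, 0.56, 0.62, 0.68 and 0.30 in this order of groups, those over all genes tested lay between -0.01 and 0.02, and the medians of the 8 microRNA genes were 2.11, 0.51, 3.37, 3.75, 4.41 and 3.82. The neighbour count at 15 min of GSK591 was 0 without either untreated library or without GSK591 replicate 1, 1 without GSK591 replicate 2, and 0 by DESeq2's Wald test. At 15 min of MS023 it was 0 without untreated replicate 2, with MS023 and Dex it was 3 without MS023 with Dex replicate 1, 4 without either untreated library, 8 without its replicate 2 and 0 by DESeq2, after 3 h of GSK591 it was 1 without untreated replicate 2 and 4 without GSK591 replicate 2, with GSK591 and Dex 6 without untreated replicate 2, and after 3 h of MS023 it was 7 without MS023 replicate 2.

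**Figure D4:**
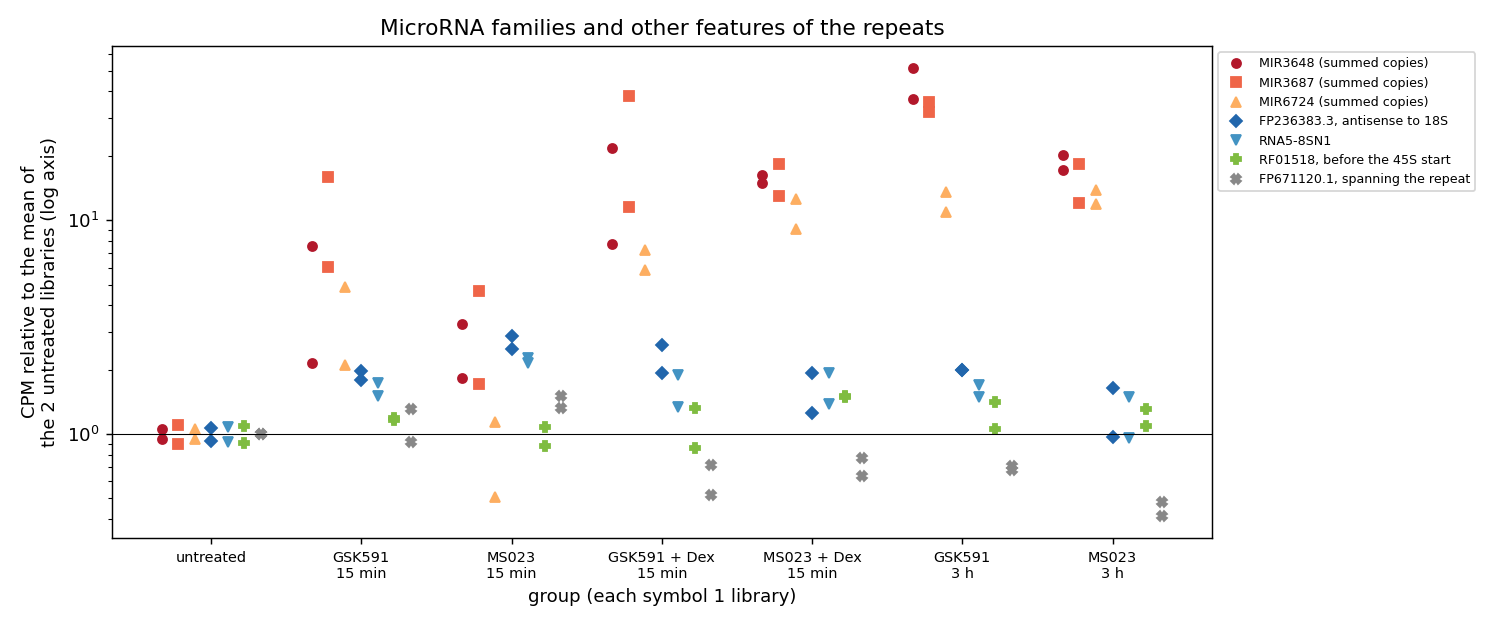
Level in each library relative to the mean of the 2 untreated libraries (log axis), by group, for the 3 microRNA families and 4 other features of the repeats. The families spread furthest from the line at 1, with MIR3648 highest after 3 h of GSK591 (4015 and 2875 CPM), and FP671120.1 lies below the line in both Dex groups and at 3 h.

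Ratios to these neighbours within a library are free of scaling, and those given for 3 h lay above the untreated ones, while at 15 min of MS023 some overlapped them. MIR3648 had 0.0751 and 0.0709 counts per RF01518 count in untreated cells, 3.60 and 1.91 after 3 h of GSK591 and 1.10 and 1.21 after 3 h of MS023. Per 100 counts of the 4 antisense lncRNAs it had 0.20 and 0.257 in untreated cells and 0.145 and 0.297 after 15 min of MS023, which overlap, against 5.83 and 4.22 after 3 h of GSK591. After 15 min of GSK591 that ratio was 0.871 and 0.272. Per 5.8S count MIR3648 had 0.0118 and 0.0156 in untreated cells and 0.0115 and 0.0194 after 15 min of MS023, which overlap as well. MIR6724 had 0.795 and 0.754 counts per 100 RF01518 counts in untreated cells and 8.13 and 7.51 after 3 h of GSK591.

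Other microRNA genes served as genes of the same kind outside the repeats. Of the 1873 listed, 123 passed the filter, and edgeR called 0 of them after 15 min of GSK591 or MS023, with 6 and 7 at an unadjusted p under 0.05 and 0 by DESeq2's Wald test. It called 3 higher and 1 lower with GSK591 and Dex, 8 higher with MS023 and Dex, 5 higher and 1 lower after 3 h of GSK591, and 6 higher after 3 h of MS023. Of all genes tested, 3.21%, 4.99%, 7.25% and 5.4% were called higher in these groups, and of the 123 it was 2.44%, 6.50%, 4.07% and 4.88%. Their median differences lay between -0.03 and 0.04. MIR4530, on chromosome 19, rose from 7.65 ± 0.441 to 20.2 ± 5.88 CPM with MS023 and Dex (1.40 ± 0.19 on the log2 scale, edgeR adjusted p = 1.7e-06) and to 16.7 ± 4.17 with GSK591 and Dex (adjusted p = 0.00025). MIR3181, on chromosome 16, had 0 counts in both untreated libraries and 18 and 15 counts after 3 h of GSK591 (edgeR adjusted p = 2e-05), at least 5.55-fold higher than the floor of 3 counts per library. The calls in this list, 24 over the 6 comparisons, were 15 without untreated replicate 1.

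The genes of the polymerase I and nucleolar machinery were counted from a list of 42, all of which passed the filter. edgeR called 0 at 15 min of either inhibitor, with 3 and 7 at an unadjusted p under 0.05 and 0 by DESeq2's Wald test. It called 1 higher and 2 lower with GSK591 and Dex, 1 and 1 with MS023 and Dex, 3 and 3 after 3 h of GSK591, and 2 and 1 after 3 h of MS023. The higher calls were 2.38%, 2.38%, 7.14% and 4.76% of the 42, beside 3.21%, 4.99%, 7.25% and 5.4% of all genes, and the lower calls 4.76%, 2.38%, 7.14% and 2.38%, beside 2.64%, 2.67%, 3.79% and 2.23%. UBTF, which organises active ribosomal DNA and recruits polymerase I, rose from 107.6 ± 5.43 to 160.4 ± 5.97 CPM after 3 h of GSK591 (0.58 ± 0.10, edgeR adjusted p = 5.9e-05) and to 152.2 ± 11.0 after 3 h of MS023 (adjusted p = 0.00053). POLR1E, a polymerase I subunit, rose from 12.5 ± 0.763 to 19.6 ± 0.536 CPM (adjusted p = 0.0017) and to 17.7 ± 1.51 (adjusted p = 0.024) in the same groups. Over the 6 comparisons the list had 14 calls, against 3 without untreated replicate 2 and 9 without untreated replicate 1. The UBTF calls held without any 1 library, while that of POLR1E after 3 h of MS023 was lost without either untreated library or without MS023 3 h replicate 1 (0.41 to 0.58). The list medians at 3 h were -0.11 and -0.10, beside -0.01 over all genes with each inhibitor.

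Of 23 genes that process microRNA precursors, all passed the filter and edgeR called 0 at 15 min of either inhibitor, with 2 and 1 at an unadjusted p under 0.05 and 0 by DESeq2's Wald test. It called 2 higher and 1 lower with GSK591 and Dex, 3 and 1 with MS023 and Dex, 1 and 1 after 3 h of GSK591, and 2 and 1 after 3 h of MS023. The higher calls were 8.70%, 13.0%, 4.35% and 8.70% of the 23, beside 3.21%, 4.99%, 7.25% and 5.4% of all genes, and the lower call was 4.35% of the 23 in each, beside 2.64%, 2.67%, 3.79% and 2.23%. With so few genes these shares rest on 1 to 3 calls. RAN, the GTPase that drives export of precursors with exportin 5, rose from 52.7 ± 2.74 to 76.9 ± 1.84 CPM after 3 h of GSK591 (edgeR adjusted p = 0.00015) and to 76.6 ± 3.16 after 3 h of MS023 (adjusted p = 0.00024). SRRT, which links the cap-binding complex to DROSHA processing, fell by 0.46 with GSK591 and Dex (adjusted p = 0.0019) and by 0.31 with MS023 and Dex (adjusted p = 0.032). The latter call was lost without any 1 library of the groups compared (-0.39 to -0.24) and the former without GSK591 with Dex replicate 2 (-0.38). The 12 calls in this list over the 6 comparisons became 5 without untreated replicate 1.

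Over the 17470 genes at 2 CPM or more on average, those whose log2 CPM over the 14 libraries correlated most with the summed MIR3687 counts were MIR663AHG (r = 0.97), DNAJC1 (0.97), LOC389906 (0.95), YBX3 (0.94) and SOCS1 (0.94). For MIR3648 they were PPTC7 (0.97), CPE (0.97), URGCP (0.97), SOCS1 (0.96) and MIR663AHG (0.95), and for MIR6724 CRLS1 (0.99), RAN (0.99), SRXN1 (0.98), CASD1 (0.98) and AC005410.1 (0.98). They differed in how far they moved. RAN went from 47.9 to 81.1 CPM, 1.69 times, while MIR663AHG, the host transcript of another microRNA on chromosome 20, went from 38.9 to 614.4 CPM, 15.8 times, and AC005410.1, a processed pseudogene, from 0.541 to 17.1 CPM, 31.6 times. Inside the repeats the likeness was lower. With MIR3648 the correlation was 0.47 for RF01518 and 0.22 for FP671120.3 of the RNA45SN2 repeat, and -0.63 for FP671120.1.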

How the data were processed

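The data are PRO-seq libraries of A549 cells, 7 groups of 2. The authors deposited a table of raw read counts per gene, made with featureCounts 2.0.1 against hg38, per the submitters' processing notes, and those counts were used as deposited. The aligner, the strand setting, whether exons or whole genes were counted and the treatment of reads that match several places are not given in the sources used here, and with near-identical repeats they could shift counts between copies. The authors also deposited 6 DESeq2 tables, with a mean signal, log2 fold changes with their errors, a test score and p-values, per the file headers. From these only log2 fold changes, their standard errors and adjusted p-values are quoted, as the authors' own. Gene coordinates come from GENCODE 29, whose IDs matched all 58780 rows, and repeat coordinates from RefSeq GRCh38.p14.

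Counts were fitted with edgeR 4.0.16 (R 4.3.3): filterByExpr, TMM scaling, 1 coefficient per group over all 14 libraries (7 residual degrees of freedom), quasi-likelihood tests and Benjamini-Hochberg adjustment over 21910 genes with a threshold of 0.05. The biological coefficient of variation was 0.0728. A standard error is the log2 fold change over the square root of its F statistic. The fit estimates a gene's spread over all groups together, so this error does not show the gap between the 2 libraries of a single group. The script was tested on simulated counts. Family values come from a fit with copies summed. Depth was 5768312 to 9606938 counts, and both the count and the spread between libraries bear on the precision of each value. Alternatives were DESeq2 1.42.0 size factors and Wald test, library size with and without mitochondrial genes, no filter, a replicate block, fitting only the groups compared, and leaving out each library.

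The members and gene lists were chosen with earlier results of these data known. Named were all 8 members, the 6 neighbours with the highest mean CPM, the 5 genes most correlated with each family, and from each other list the 2 genes with the smallest p against untreated. Libraries with the same replicate number did not deviate together: over 21 pairs of groups the correlation of their deviations ran from -0.07 to 0.10, and 1 was above 0.1.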

Additional observations from a re-analysis of the deposited data

Results flagged for a closer look

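The estimated effect of added Dex was flagged as unlike between the inhibitors for 2 results. For the MIR6724 family the Dex effect beside GSK591 was lower than that beside MS023 by 2.88 on the log2 scale (difference -2.88 ± 0.33), and this family was among the genes chosen with that value known. For RF01518 of the pseudogene repeat (ENSG00000277671.1), near MIR6724-2, the difference was -0.775 ± 0.19 (edgeR adjusted p = 0.03). DESeq2's Wald test called 0 of the 15 neighbours with an adjusted p for this difference. The other 3 copies of RF01518 had differences from -0.71 to -0.64 with adjusted p from 0.062 to 0.14, and since copies are near-identical they do not count as separate genes. With 2 libraries per group, single outlying libraries were not tested for.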

How the results depend on the processing

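All 42 log2 fold changes of the summed families moved by less than the spread between replicates under every change of scaling, filter, design or tool run, and the largest moves came from leaving out a library, as given beside the results. The MIR6724 value for GSK591 against MS023 at 3 h, -0.07 and not called, was 0.045 with library size alone. Library size alone shifted the median of all genes by up to -0.204 (GSK591 with Dex against GSK591). Under DESeq2's Wald test the count of microRNA genes called was 5 of 8 at 15 min of GSK591, 0 of the 4 with an adjusted p at 15 min of MS023, 1 for Dex beside GSK591, 5 for 3 h against 15 min of GSK591 and 3 for GSK591 against MS023 at 15 min. At 15 min of MS023 it was 4 with library size alone, with no filter and with only the groups compared fitted. That last fit called 4 for Dex beside GSK591, 2 for GSK591 against MS023 with Dex and 4 at 3 h, where no filter gave 4 and 4, and 8 for the difference of Dex effects. Neighbours called at 15 min of GSK591 were 0 with DESeq2 size factors, with nuclear library size and with DESeq2's test, 8 with no filter, 9 with only those groups and 8 with the replicate block. DESeq2's test called 6 with GSK591 and Dex, 0 with MS023 and Dex and 4 after 3 h of GSK591, and no filter gave 8 after 3 h of MS023. Over the 6 comparisons with untreated, DESeq2's test made 4 calls among other microRNA genes, 6 in the polymerase I list and 7 in the processing list, and library size alone 8 and 5 in the last 2. The cause of these changes was not tested, and no share of all genes called is given for these settings. Leaving out 1 library gave 2 to 8 members called at 15 min of GSK591, 0 to 3 at 15 min of MS023, 0 to 8 for Dex beside GSK591, 2 to 8 for the difference of Dex effects, and 0 to 8 for GSK591 against MS023 at 15 min. It gave 0 to 1, 0 to 8, 6 to 10, 3 to 8, 1 to 8 and 2 to 7 neighbours called in the 6 comparisons with untreated (15 min, Dex, 3 h, GSK591 first), and 15 to 26, 3 to 14 and 5 to 12 calls in the other 3 lists. The replicate block moved the other counts by less than 1.5 times, and the numbers do not pair the samples. The MIR6724 copies had the fewest counts, 7 to 261 per library. Their standard errors against untreated were the largest of the 8 genes at 15 min of MS023 (0.418 to 0.561). At 3 h of GSK591 they were not, with 0.244 for MIR6724-2 and 0.385 for MIR3687-2.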
